A study of Mus musculus with 10 samples.

Results

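The genes described here were nearly absent from the TdTomato+ libraries: each had 3 reads or fewer in every one of the 5 libraries of TdTomato+ cells. They were chosen by these counts, and 102 of the 14300 genes in the table met the rule, which is 0.713%. At the same limit, 7 genes were nearly absent from all 5 TdTomato- libraries. Since the TdTomato+ counts selected the genes, their difference between the populations is given as a description, with no test.

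The cells came from C57BL/6J embryos carrying Grem1creERT and Rosa26LSLTdtomato. In these mice regulatory sequences of Grem1, a secreted antagonist of bone morphogenetic proteins, drive a tamoxifen-dependent Cre, and TdTomato then marks the cells in which they were active together with the progeny of those cells. The dams received 6 mg of tamoxifen midway between 13 and 14 days post coitum (dpc), the embryos were collected 24 h later, midway between 14 and 15 dpc, and live cells of the dissected dorsal telencephalon, with the meninges removed, were sorted into a TdTomato+ and a TdTomato- fraction. Both fractions therefore shared genotype, age and tamoxifen, and differed in the fluorescence on which they were sorted. The labels give mice 2 to 6, each with 1 library of either fraction, 10 libraries in all. They do not say whether a mouse number is 1 embryo or a pool, so the spread between mice may be partly technical.

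Total counts were 23429034 to 27286180 per library, and 3 reads were worth 0.130 to 0.136 CPM (counts scaled to a common library size, with TMM factors) in the TdTomato+ libraries. Grem1 itself, the check of the labels, measured 6.11 ± 0.73 CPM (SD, n = 5) in the TdTomato- libraries against 63.3 ± 3.10 CPM in the TdTomato+ libraries, a log2 fold change of 3.37 (edgeR quasi-likelihood test, adjusted p = 1.78e-09).

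Microglia are the resident macrophages of the brain. They arise from progenitors of the yolk sac, enter the neural tube early in development, depend on signals through the receptor Csf1r, and clear dying cells and debris. They are not descendants of the neural progenitors that make cortical neurons. Genes that mark them were the largest group in any of the 16 cell type lists that were searched. Their list, drawn up with earlier results of these data known, had the most names, 127. It held 51 of the 14300 genes in the table, fewer than the lists for proliferation (107), radial glia (64) and GABAergic and subpallial cells (58).

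Of the 102 genes, 17 were in the list for microglia and macrophages, 5 were in other lists and 80 were in none. The 80 comprised 62 protein-coding and 18 noncoding genes. The 17 were C1qa, C1qb, C1qc, P2ry12, Ctss, Unc93b1, Lair1, Nckap1l, Cyba, Adgre1, Lyn, Cyth4, Slco2b1, Cd33, Hpgds, Ly86 and Apbb1ip. The 5 were Ptgds (meninges and fibroblasts), Nkx6-2 (GABAergic and subpallial cells), Aqp4 (radial glia), Ccno (choroid plexus, cortical hem and cilia) and Pax5 (diencephalon, midbrain and hindbrain). None of the 39 endothelial, 15 mural, 15 erythroid, 15 oligodendrocyte-lineage, 19 intermediate progenitor, 107 proliferation, 13 Cajal-Retzius or 10 projection neuron genes in the table met the rule.

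Sequences around the RefSeq starts of 4 of the microglial genes are given so that the letters there can be read; no start site was measured here. They are RefSeq windows on GRCm38.p6, from 250 bases before to 50 after the annotated start, read 5′ to 3′ on the strand of the gene. Capitals mark GAGGAAG or its complement CTTCCTC, letters shared with the binding motif of PU.1, the transcription factor of the myeloid lineage. The windows are C1qb at chr4:136886151-136886450 (minus strand), C1qc at chr4:136892865-136893164 (minus), Ctss at chr3:95526536-95526835 (plus) and Cd33 at chr7:43533122-43533421 (minus). The RefSeq starts of Cd33 and C1qc lie inside the GENCODE bodies of these genes (chr7:43524216-43544428 and chr4:136889804-136893065), so their windows are not upstream of all annotated transcripts.
C1qb: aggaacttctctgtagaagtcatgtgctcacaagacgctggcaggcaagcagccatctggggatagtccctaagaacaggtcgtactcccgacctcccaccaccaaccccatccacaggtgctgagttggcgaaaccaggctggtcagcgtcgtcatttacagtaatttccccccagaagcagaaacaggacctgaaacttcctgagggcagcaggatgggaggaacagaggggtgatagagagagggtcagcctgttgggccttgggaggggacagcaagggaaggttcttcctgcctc
C1qc: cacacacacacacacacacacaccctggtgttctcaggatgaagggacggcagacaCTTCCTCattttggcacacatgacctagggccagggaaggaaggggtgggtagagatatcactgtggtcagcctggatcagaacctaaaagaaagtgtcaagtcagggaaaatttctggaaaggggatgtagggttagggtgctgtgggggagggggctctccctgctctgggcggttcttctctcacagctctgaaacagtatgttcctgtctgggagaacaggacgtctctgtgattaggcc
Ctss: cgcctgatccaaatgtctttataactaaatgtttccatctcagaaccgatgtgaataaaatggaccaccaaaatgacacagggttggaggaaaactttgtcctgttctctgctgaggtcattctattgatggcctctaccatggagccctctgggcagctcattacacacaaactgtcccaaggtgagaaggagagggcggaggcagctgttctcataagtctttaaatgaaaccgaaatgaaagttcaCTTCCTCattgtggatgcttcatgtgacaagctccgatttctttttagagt
Cd33: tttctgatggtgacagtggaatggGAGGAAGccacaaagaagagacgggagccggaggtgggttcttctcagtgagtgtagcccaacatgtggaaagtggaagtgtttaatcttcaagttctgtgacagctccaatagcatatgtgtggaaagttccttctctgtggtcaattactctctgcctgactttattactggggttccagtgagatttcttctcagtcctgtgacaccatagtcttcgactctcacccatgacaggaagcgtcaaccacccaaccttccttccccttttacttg
The letters occurred 1 time each in the windows of C1qc, Ctss and Cd33 and 0 times in that of C1qb. These 4 windows are examples out of the 12 found for microglial genes, and the rest are not shown. Letters of other motifs were counted too and are not given. On both strands the PU.1 letters were in 12.8% of the 10561 windows that could be matched to genes of the table. No enrichment is read from the 4 examples beside that share. A match is a description of letters and not a site. The windows held 6 (C1qb), 3 (C1qc), 5 (Ctss) and 4 (Cd33) CG pairs. Windows were found for 72 of the 102 genes (70.6%) and for 12 of the 17 microglial genes (70.6%), against 73.9% of all genes of the table. Because fewer than 80% of either list had a window, a comparison of promoter letters over the lists is void and none is given.

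All 102 genes were low in the TdTomato- libraries too. Their mean level there was 0.572 to 5.74 CPM with a median of 1.33 CPM, against a median of 24.7 CPM over all genes of the table. There were 81 genes under 2 CPM and 9 over 3 CPM. Raw counts in single TdTomato- libraries were 12 to 235 with a median of 32. The table holds no gene whose fifth-highest CPM, here without TMM factors, was under 0.501. The 102 genes passed such a limit only through the TdTomato- libraries, in all 5 of which each of them exceeded 0.5 CPM on that scale. In the range of levels that they spanned there were 3344 genes of the table, of which they were 3.05%.

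In the TdTomato+ libraries the 510 values of these genes were 0 reads in 183 cases, 1 read in 145, 2 reads in 105 and 3 reads in 77. Summed over the 5 libraries a gene had 0 to 13 reads, with a median of 6. Only Cd33, Kirrel2 and Pla2g4a were at 0 in all 5 TdTomato+ libraries, and 13 genes had at least 1 read in each. In the fit of all genes 102 of the 102 were called lower in TdTomato+ libraries (adjusted p of 0.05 or less and a log2 fold change of -2 or less), where 9.74% of all genes were; the rule made this so. Because the samples are bulk, fewer cells of a type and less RNA per cell cannot be told apart in any of these differences.

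For a gene with reads in a TdTomato+ library, the ratio of TdTomato- to TdTomato+ was taken from summed counts with an exact 95% interval, which covers counting error only. These ratios were 8.46 to 322 with a median of 29.5. Because the rule selected low TdTomato+ counts, they are descriptions and not estimates of a fold change. For the genes at 0, the mean TdTomato- level was set against the mean of the 3-read floors of the 5 TdTomato+ libraries, which gives at least 11.8-fold higher for Cd33, at least 6.39-fold for Kirrel2 and at least 5.88-fold for Pla2g4a in TdTomato- libraries. Cd33 is a sialic acid-binding receptor of myeloid cells, Kirrel2 a cell adhesion protein of the immunoglobulin superfamily, and Pla2g4a the cytosolic phospholipase that frees arachidonic acid.

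C1qa, C1qb and C1qc, which encode the 3 chains of the complement component C1q that tags debris and synapses for removal, were among the 5 genes with the highest CPM. C1qc had 198, 62, 62, 204 and 235 reads in the TdTomato- libraries of mice 2, 3, 4, 5 and 6, and 1, 2, 2, 1 and 2 reads in the TdTomato+ libraries, a ratio of 80.5 (40.6 to 187). C1qb had 187, 47, 51, 131 and 177 reads against 1, 3, 2, 0 and 3, a ratio of 55.8 (29.2 to 123). C1qa had 187, 44, 60, 113 and 182 reads against 2, 2, 0, 2 and 2, a ratio of 62.0 (31.2 to 144). For each chain the TdTomato- libraries of mice 3 and 4 were the lowest of the 5. The groups did not overlap, which the rule and the table's low-count limit together made so.

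The 3 C1q genes lie next to each other on the minus strand of chromosome 4 (GRCm38, chr4:136880129-136886187 for C1qb, chr4:136889804-136893065 for C1qc and chr4:136895917-136898803 for C1qa), 3617 and 2852 bases apart. Per kilobase of exon, mean TdTomato- levels were 4.24 (C1qa), 4.11 (C1qb) and 2.97 (C1qc) CPM per kb. The ratio of C1qb to C1qa per kilobase was 0.812 to 1.11 over the 5 TdTomato- libraries, and that of C1qc to C1qa was 0.557 to 0.972. C1qa per kilobase itself ranged from 1.46 in mouse 3 to 7.03 in mouse 2, so the chains moved together across mice far more than they moved against each other.

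Ctss, the lysosomal protease cathepsin S of antigen-presenting cells, had 182, 48, 54, 154 and 158 reads in the TdTomato- libraries of mice 2 to 6 and 0, 2, 2, 0 and 1 in the TdTomato+ libraries, a ratio of 101 (43.0 to 312). P2ry12, the ADP receptor by which microglial processes find injury, had 144, 48, 39, 121 and 108 reads against 1, 2, 2, 1 and 1, a ratio of 55.6 (26.8 to 139). Unc93b1, which carries nucleic acid-sensing Toll-like receptors to endosomes, had 122, 25, 38, 97 and 152 reads against 0, 1, 3, 1 and 3, a ratio of 45.9 (23.1 to 107). In these genes too the libraries of mice 3 and 4 were the lowest of the TdTomato- group. The smallest ratio among the 17 was that of Lyn, a Src-family kinase of blood cells, at 20.2 (11.1 to 40.9).

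The other microglial genes had lower CPM in TdTomato- libraries. Lair1, an inhibitory collagen receptor of leukocytes, was at 2.58 ± 0.63 CPM (SD, n = 5) and Nckap1l, the blood-cell subunit of the WAVE actin complex, at 2.47 ± 1.29 CPM. Adgre1, which encodes the macrophage antigen F4/80, was at 2.01 ± 0.99 CPM. Cyba, a subunit of the NADPH oxidase of phagocytes, was at 2.06 ± 0.52 CPM. Per kilobase the highest of the 17 were C1qa, C1qb, Ctss (3.32 CPM per kb), C1qc and Cyba (1.98 CPM per kb), and the lowest was Apbb1ip, an adaptor of integrin activation, at 0.154 CPM per kb.

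**Figure D1:**
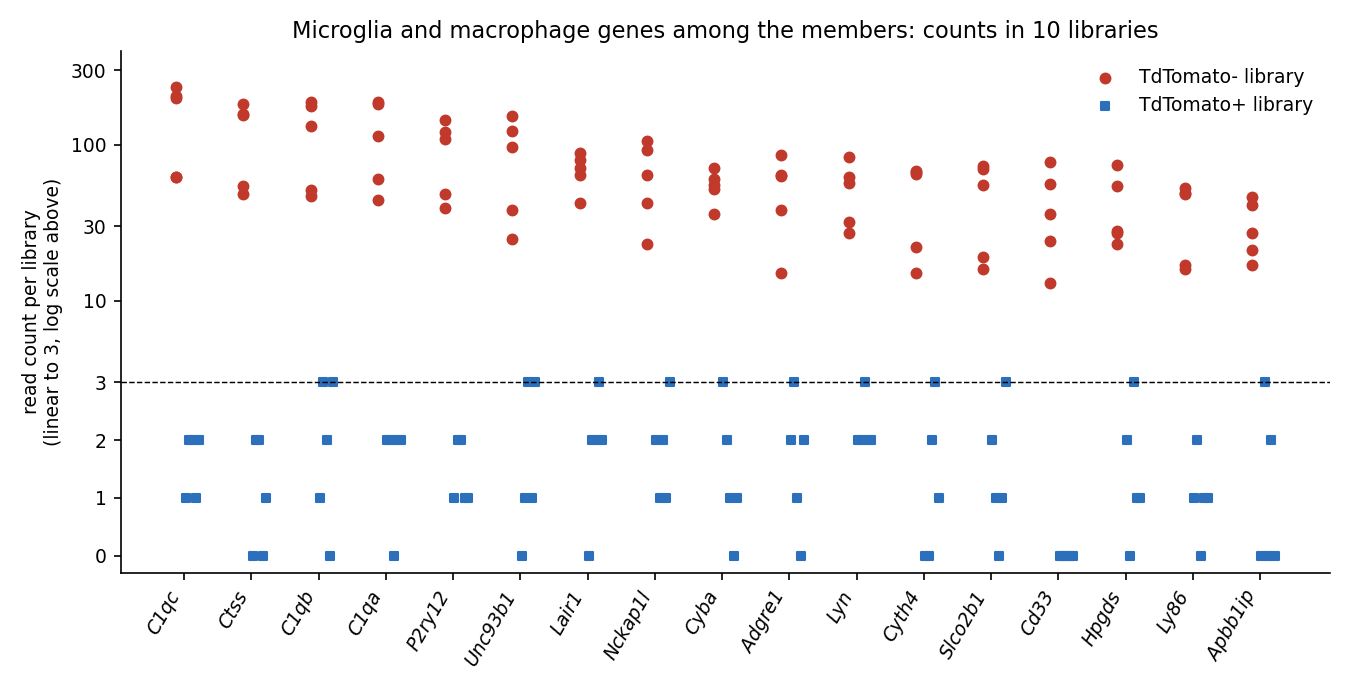
Read counts of the 17 microglia and macrophage genes in the 5 TdTomato- (red circles) and 5 TdTomato+ (blue squares) libraries; the vertical axis is linear up to 3 reads, the limit of the rule (dashed line), and logarithmic above. All TdTomato+ values lie at 0 to 3 reads by the rule, and TdTomato- values lie between 13 and 235 reads.

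The rest of the microglial list was not selected by the rule, but it was not free of the table's low-count limit. Cx3cr1 (2 to 7 reads per TdTomato+ library), Fcrls (0 to 8) and Tmem119 (0 to 7) passed that limit only through the TdTomato- libraries. Genes so sparse in TdTomato+ libraries could enter the table only where TdTomato- libraries were higher, so the share of lower genes below is a description. Of 51 genes of the list that are in the table, 34 did not meet the rule. Of these 34, 20 were lower in TdTomato+ libraries, 1 was higher and 13 were neither (edgeR, adjusted over all genes), where 9.74% of all genes were lower; the list was drawn up with earlier results of these data known. Csf1r, the receptor on which microglia depend, averaged 15.5 ± 8.99 CPM in the TdTomato- libraries against 0.560 ± 0.31 CPM in the TdTomato+ ones, a log2 fold change of -4.71 (SE 0.27, edgeR adjusted p = 4.01e-07). Cx3cr1, the fractalkine receptor, fell by 5.42 and Fcrls, an Fc receptor-like gene of microglia, fell by 5.64 on the log2 scale (edgeR adjusted p = 3.36e-07 and 3.33e-06). Tmem119, a surface marker of microglia, fell by 3.48 from 1.16 ± 0.70 CPM (edgeR adjusted p = 0.0011).

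The gene of the list that went the other way was Sla, an adaptor of Src-like kinases, with 21.3 ± 11.5 CPM in the TdTomato- and 371 ± 114 CPM in the TdTomato+ libraries, a log2 fold change of 4.24 (edgeR adjusted p = 2.22e-08). Coro1a, a regulator of actin, had a log2 fold change of 0.80 and Csf2ra, a subunit of the GM-CSF receptor, of 1.05, both with TdTomato+ above TdTomato- and short of the fold threshold. Lgmn, the lysosomal protease legumain, had a log2 fold change of -0.35. The list thus holds genes with many reads in both populations. Of the markers that define the list, Csf1r, Cx3cr1, C1qa, C1qb, C1qc, P2ry12, Tmem119 and Fcrls were in the table, and Aif1, Trem2, Spi1, Ptprc, Itgam, Mrc1, Cd163, Lyz2 and Pf4 were not analysed here. The markers present do not separate microglia from the other macrophages of the embryonic brain.

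Over the genes of a list that did not meet the rule, the median TdTomato+ level as a percentage of the TdTomato- level was 14.9% for microglia and macrophages (34 genes). It was 4.39% for radial glia (63 genes), 4.55% for proliferation (107 genes) and 6.67% for GABAergic and subpallial cells (57 genes), against 99.6% over all genes. In these 3 lists 1, 0 and 1 genes met the rule. Leaving out the selected genes removes many of the lowest values of the microglial list, but not all: Mpeg1, outside the rule, was at 0.51%. With its 17 selected genes, which the rule chose for these counts, the median of the microglial list was 5.07%. The medians were 20.7% for erythroid cells, 31.0% for meninges and fibroblasts, 47.4% for endothelium and 54.7% for mural cells.

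**Figure D2:**
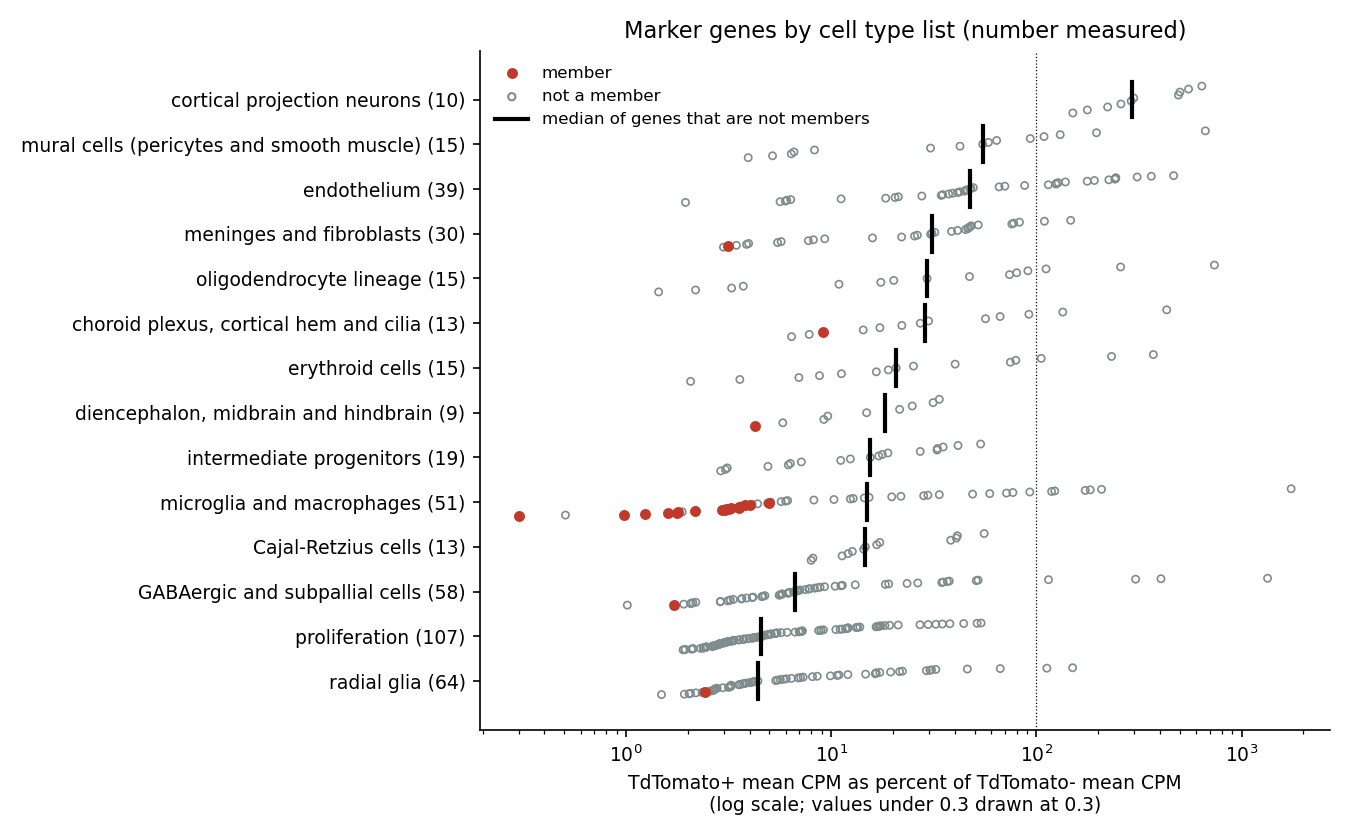
Mean CPM in TdTomato+ as a percentage of mean CPM in TdTomato- libraries (log scale) for every measured gene of the cell type lists with at least 9 genes; red points meet the rule, open points do not, and bars are medians of the open points. Of the 22 red points 17 lie in the microglial list, whose open points have a median of 14.9% against 4.39% for radial glia and 4.55% for proliferation.

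Within the TdTomato- libraries the microglial genes differed between mice. Summed over the 17 genes, the level was 70.3 CPM in mouse 2, 19.97 in mouse 3, 24.4 in mouse 4, 56.0 in mouse 5 and 60.1 in mouse 6. The sum was thus 3.52 times as high in the highest library as in the lowest. In the TdTomato+ libraries of the same mice the 17 genes summed to 19, 28, 25, 19 and 28 reads; these counts are capped by the rule and nothing is read from their order. The TdTomato- libraries of mice 3 and 4 were the deepest and the shallowest of the 5, with 27286180 and 23542791 counts.

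The libraries of mice 3 and 4 were the 2 lowest of the TdTomato- libraries in 17 of the 17 microglial genes, where they were in 16.2% of all genes of the table. The pair was picked out after these values had been seen, and genes of 1 cell type are not independent of each other. Of the 34 microglial genes outside the rule, 29 (85.3%) had the same 2 libraries lowest. Of the other 85 selected genes 27 did (31.8%), and of the genes at the same range of levels that did not meet the rule, 17.2% did. Csf1r was at 24.5, 4.98, 6.70, 19.2 and 21.8 CPM in mice 2 to 6, in the same order of high and low libraries.

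The highest TdTomato- library had a median of 4.29 times the level of the lowest over the 17 microglial genes. That figure was 1.94 over the other 85 genes and 1.70 over the genes of like level outside the rule. The chi-square of the counts against equal proportions, per degree of freedom, which is near 1 when counting error alone separates libraries, had medians of 16.5, 2.201 and 2.177 in the same 3 sets. This statistic also grows with the counts themselves, and the median level of the 17 genes was 2.06 CPM against 1.20 CPM for the 62 protein-coding genes in no list. The part of the level in the wider spread was not tested.

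**Figure D3:**
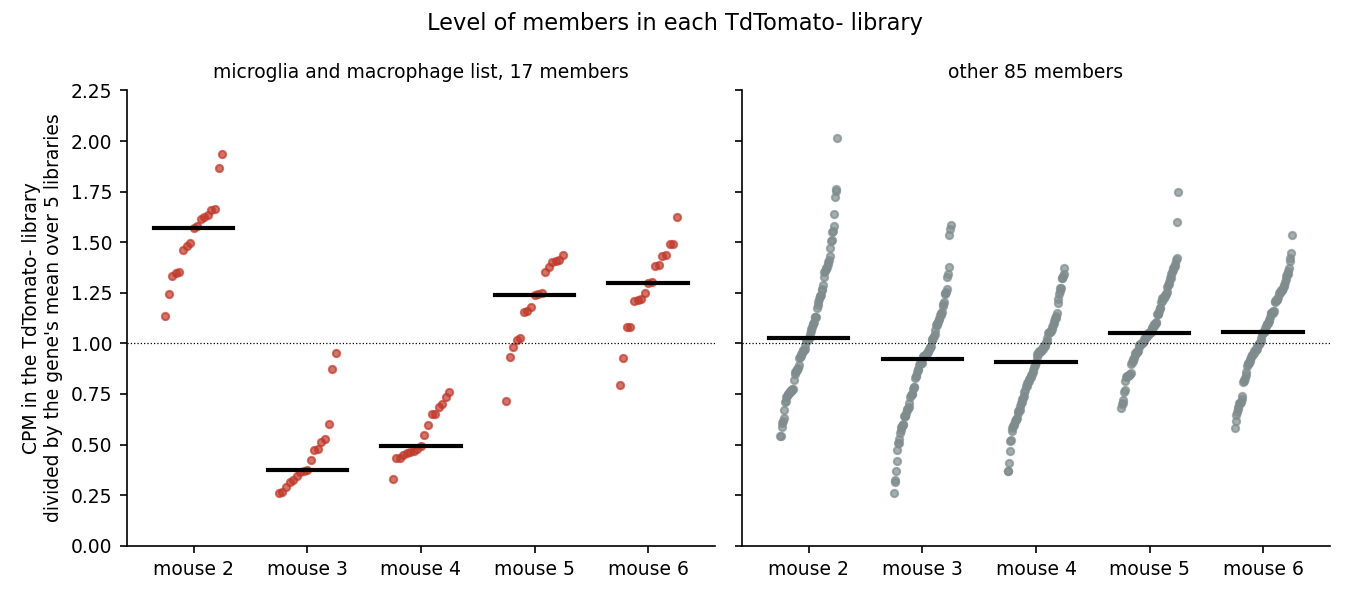
CPM of each gene in a TdTomato- library divided by that gene's mean over the 5 TdTomato- libraries, for the 17 microglial genes (left) and the other 85 genes (right); points are genes and bars are medians. In the left panel most points of mice 3 and 4 lie below those of mice 2, 5 and 6, whose summed levels were 56.0 to 70.3 CPM against 19.97 and 24.4 CPM. The bars of the right panel lie close to 1, but the sums of its genes were also lowest in mice 3 and 4, at 100.9 and 101.3 CPM against 122.7 to 130.5 CPM.

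Markers of other cell types were summed in the same libraries, and their part in the difference between mice was not tested. In 5 of the 16 lists, the microglial one included, mice 3 and 4 had the 2 lowest sums. The other 4 were mural cells, meninges and fibroblasts, the oligodendrocyte lineage and radial glia, whose highest sums were 1.24, 1.15, 1.29 and 1.24 times their lowest. Endothelial genes summed to 349 to 384 CPM and did not follow this order. Cajal-Retzius genes were highest in mice 3 and 4, at 569 and 692 CPM against 420 to 466 CPM. Genes of the diencephalon, midbrain and hindbrain ranged most widely, from 81.6 CPM in mouse 6 to 316 CPM in mouse 4. The labels give no litter, day or batch for the mouse numbers.

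Among the 27 genes outside the microglial list whose TdTomato- libraries were lowest in mice 3 and 4, several varied more than the median of the other 85 genes (1.94). Some of them passed the microglial median of 4.29. The microglial list may be incomplete, so the other 85 genes may include genes of these cells. Vsir, the checkpoint receptor VISTA, was at 4.46, 0.66, 1.32, 2.66 and 3.55 CPM in mice 2 to 6, and its highest library stood 6.79 times above its lowest, more than for any other of the 102 genes. Tgfb1, the ligand TGF-β1, was at 2.62, 0.48, 1.00, 1.55 and 1.81 CPM, and Tgfbr2, its type II receptor, at 3.17, 0.97, 1.20, 2.50 and 2.37 CPM. Afap1l2, an adaptor that binds actin, was at 4.34, 0.83, 1.08, 3.65 and 3.35 CPM. All 4 genes were low in mice 3 and 4 and high in mouse 2. Myo1f, an unconventional myosin, and P2rx7, an ATP-gated channel, had the same pattern with highest-to-lowest ratios of 4.68 and 2.61, and were picked after their values had been seen.

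At the other end, Fsd2, Gm26669, Gm43965 and Gm28209 varied least between mice, with highest-to-lowest ratios of 1.12, 1.16, 1.16 and 1.22. Fsd2 was at 0.90, 0.93, 0.84, 0.83 and 0.87 CPM in mice 2 to 6. Its chi-square per degree of freedom of 0.053 was well under 1, so no difference between mice was detectable at this depth.

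Helt, a basic helix-loop-helix transcription factor of GABAergic progenitors of the midbrain, had the highest CPM of the 102 genes, 5.74 ± 1.65 CPM (SD, n = 5). It had 175, 122, 102, 199 and 163 reads in the TdTomato- libraries of mice 2 to 6 and 0, 0, 0, 0 and 2 in the TdTomato+ libraries, a ratio of 322 (88.8 to 2664). This was the largest ratio among the genes with a TdTomato+ read, but it rests on 2 reads in the library of 1 mouse. Its interval overlaps that of Ctss (43.0 to 312) and covers counting error only, so Helt is not ranked above Ctss here. Cd33, at 0 in all TdTomato+ libraries, has only a lower bound. Mice 3 and 4 were also lowest for Helt, with a highest-to-lowest ratio of 1.93. This was under the median of 4.29 over the 17 microglial genes, though Cyba, 1 of the 17, was at 1.92.

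The 5 genes in other lists were at 0.88 to 1.70 CPM in TdTomato- libraries. Ptgds, the lipocalin-type prostaglandin D synthase of meninges, was at 1.70 ± 0.78 CPM in TdTomato- libraries with a ratio of 31.7 (14.4 to 87.4). Pax5, a transcription factor of the midbrain-hindbrain boundary, was at 1.68 ± 0.56 CPM with a ratio of 23.7 (11.8 to 55.6). Aqp4, the water channel of astrocyte endfeet, was at 1.09 ± 0.17 CPM with a ratio of 40.9 (13.7 to 201). These intervals overlap and cover counting error only, so the genes are not ranked by their ratios here. Nkx6-2, a homeodomain factor, was at 1.03 ± 0.26 CPM, and Ccno, a cyclin-like gene of multiciliated cells, at 0.88 ± 0.22 CPM.

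Other genes of the lists from which these came were tested without having been selected, beside the 9.74% of all genes that were lower. Of 63 other radial glia genes 55 were lower, among them Notch1, a receptor that maintains neural progenitors, with 453 ± 56.3 CPM in the TdTomato- and 11.97 ± 3.93 CPM in the TdTomato+ libraries (log2 fold change -5.27, edgeR adjusted p = 5.51e-09). Nes, the intermediate filament nestin, fell by 3.55 and Vim, vimentin, by 3.23 on the log2 scale (edgeR adjusted p = 4.99e-09 and 1.46e-09). Ptprz1, whose TdTomato- level was above that of Notch1, went the other way and rose by 0.58 (edgeR adjusted p = 1.68e-06). It fell short of the fold threshold and was among the 8 radial glia genes that were neither. Of 57 other GABAergic and subpallial genes 47 were lower, 1 was higher and 9 were neither. Meis2, the highest of these in TdTomato- libraries, was among the 9, at 635 ± 32.6 CPM against 330 ± 30.8 CPM in TdTomato+ libraries (log2 fold change -0.95). Dlx1 and Dlx2, homeodomain factors of the ganglionic eminences, had log2 fold changes of -5.11 and -5.71 (edgeR adjusted p = 1.99e-09 and 4.42e-09). These genes still had many reads in the TdTomato+ libraries: Dlx2 had 875 reads over the 5 TdTomato+ libraries. Of 29 other meningeal genes 11 were lower and 18 were neither. Of 12 other choroid plexus, hem and cilia genes 6 were lower, 1 was higher and 5 were neither, and of 8 other genes of diencephalon, midbrain and hindbrain 5 were lower and 3 were neither.

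The 62 protein-coding genes in no list were at 0.619 to 5.74 CPM, with a median of 1.20 CPM and a median ratio of 28.7. The highest after Helt were Afap1l2 (2.65 ± 1.59 CPM), Vsir (2.53 ± 1.56 CPM), Gramd3, a protein with a lipid-binding GRAM domain (2.50 ± 0.47 CPM), Fam181a (2.47 ± 0.47 CPM), Xkr5 (2.27 ± 0.63 CPM) and Casp8, the initiator caspase of death receptors (2.26 ± 0.49 CPM). Casp8 had 56, 63, 39, 73 and 71 reads in TdTomato- and 0, 1, 3, 2 and 1 reads in TdTomato+ libraries. Gramd3, Fam181a, Xkr5 and Casp8 had highest-to-lowest ratios of 1.73, 1.69, 2.27 and 1.85, under those of Afap1l2 (5.23) and Vsir.

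The 18 noncoding genes made up 17.6% of the 102, against 10.4% of the table. They were 11 lincRNAs, 3 antisense genes, 2 genes of a class awaiting experimental evidence, 1 bidirectional-promoter RNA and 1 processed transcript, at 0.572 to 3.15 CPM in TdTomato- libraries. The highest was Gm43965 at 3.15 ± 0.19 CPM, followed by Gm4675 at 3.08 ± 0.28 CPM, which had 68, 91, 81, 75 and 97 reads in TdTomato- and 0, 0, 0, 2 and 0 reads in TdTomato+ libraries.

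For each gene the nearest other gene of the table on its chromosome was taken, and for 13 of the 18 noncoding genes (72.2%) that neighbour was lower in TdTomato+ libraries. The same held for 7.18% of the 1462 noncoding genes outside the rule, and for 9.13% of the nearest neighbours of all genes. The neighbours' own counts were not used by the rule, except that Tex52, the neighbour of Gm43965, met it as well. Of the 84 protein-coding genes 18 (21.4%) had a lower neighbour, and 7 of these 18 neighbours met the rule themselves. The comparison was made after the names had been seen and carries no test.

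Gm4675 overlaps Sox21, a transcription factor of neural progenitors, which averaged 80.9 ± 5.67 CPM in the TdTomato- against 1.67 ± 0.47 CPM in the TdTomato+ libraries (log2 fold change -5.59, SE 0.14, edgeR adjusted p = 3.15e-09). Gm14662 lies 223 bases from Sox3, a progenitor factor of the same family, which fell by 4.96. Gm27239 lies 685 bases from Sall3, a zinc finger factor, which fell by 5.34, and Gm26831 lies 4850 bases from Gli2, an effector of Hedgehog signalling, which fell by 4.82. Prox1os overlaps Prox1, a homeodomain factor, which fell by 4.58, and Gm26669 overlaps Zfp36l1, an RNA-binding regulator of mRNA decay, which fell by 5.05. Dlx6os2 overlaps Dlx6os1 of the Dlx5 and Dlx6 locus, which fell by 4.95, and Gm14205 overlaps Slc32a1, the vesicular GABA transporter, which fell by 3.95. All of these neighbours had edgeR adjusted p-values of 1.07e-08 or less, Gli2 having the highest.

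The exceptions were few. Gm30373 lies 73131 bases from Thy1, a surface protein of neurons, which was higher in TdTomato+ libraries by 3.75, and 2900052N01Rik lies 602807 bases from Cadm1, a synaptic adhesion molecule, which had a log2 fold change of 1.68. The neighbours of Gm29683, Gm28209 and 2010110K18Rik, which are Nr2f2, Tmem177 and Fam53c, had log2 fold changes of -1.56, -0.55 and -0.20, short of the fold threshold.

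In 8 of the 18 cases the bodies of the 2 genes overlap. The strand setting of the authors' counts is not stated, and without it reads of overlapping genes on opposite strands cannot be told apart. For Gm14205, 94.3% of its exonic bases are also exonic in Slc32a1 on the other strand, for Gm26669 92.5% in Zfp36l1 and for D030046N08Rik 85.2% in Fam69c, so the counts of these 3 are uncertain. Among the 10 noncoding genes whose bodies overlap no gene of the table, 5 had a lower neighbour, against 6.70% of 582 such genes outside the rule. Over all 102 genes 23 (22.5%) shared exonic bases with another annotated gene, against 38.0% of the table.

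**Figure D4:**
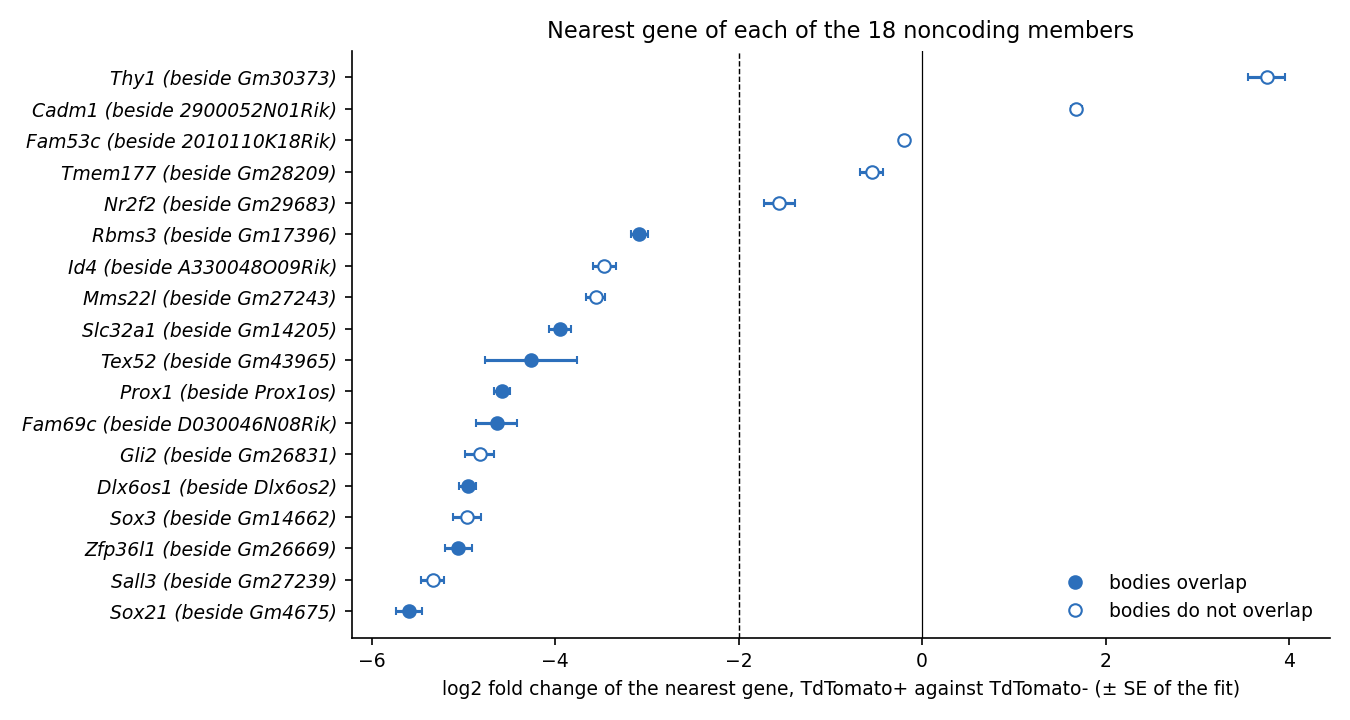
Log2 fold change of the nearest gene of each of the 18 noncoding genes, TdTomato+ against TdTomato- (error bars, SE of the edgeR fit); filled points mark pairs whose bodies overlap, and the dashed line is the fold threshold of -2. Of the 18 neighbours 13 lie left of the line and Thy1 lies far to the right.

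The limit of 3 reads falls within a continuous range of counts. There were 56 selected genes whose highest TdTomato+ count was 3 and 44 genes outside the rule whose highest was 4. Just inside were Sdsl, a serine dehydratase-like enzyme, with 2, 3, 3, 2 and 3 reads and 1500015O10Rik with 3, 2, 3, 3 and 2 reads, the largest sums at 13 each; their ratios were 8.46 (4.78 to 16.3) and 12.2 (6.99 to 23.4). Just outside were Gsx2, a homeodomain factor of the lateral ganglionic eminence, at 14.9 ± 1.19 CPM in TdTomato- libraries, and Mpeg1, the macrophage perforin, at 8.85 ± 5.44 CPM. Both exceeded every one of the 102 genes in TdTomato- level while having at most 4 reads in a TdTomato+ library. Mpeg1 had 5 reads in all over the 5 TdTomato+ libraries, fewer than the median of 6 of the selected genes.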

How the data were processed

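RNA of sorted TdTomato+ and TdTomato- cells was sequenced in 10 libraries, a pair for each of 5 mouse numbers. The deposited values are raw counts of reads per gene. The authors trimmed bases with a Phred score under 28, aligned with STAR 2.4.2a to GRCm38 with at most 1 mismatch and counted uniquely mapped reads; the annotation release and the strand setting are not given in the sources used here. The labels and the paper's methods name different library kits and read lengths.

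Symbols and exons came from GENCODE M21 (GRCm38), which matched 14271 of 14300 genes. The populations were compared by edgeR's quasi-likelihood test (edgeR 4.0.16, R 4.3.3) after filterByExpr and TMM scaling, with the mouse number as a block and Benjamini-Hochberg adjustment over 14300 genes, and the procedure was tested on simulated data. Same-numbered libraries deviated together from their group means (correlations across genes of 0.19 to 0.32, against -0.31 to 0.21 for different numbers), and the labels give each number 1 library of either fraction. No 2 libraries of a group agreed within counting error (chi-square per degree of freedom of 4.46 or more). Intervals and floors cover counting error only. DESeq2 1.42.0 and other scalings, filters and limits were tried as alternatives.

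The selected genes and the cell type lists were chosen with earlier results of these data known. Genes named are those at 0 in all TdTomato+ libraries, the highest in TdTomato- libraries overall and in each list, the most and least variable between mice, those on either side of the limit, list genes outside the rule with the highest levels, the markers that define a list, and Grem1; other names were chosen after their values were seen.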

Additional observations from a re-analysis of the deposited data

Results flagged for a closer look

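The 5 TdTomato- libraries were searched for a library far from the other 4, in the 102 selected genes and 36 further named genes, 138 in all. There were 9 such genes, where chance gives about 1 in 20, or 6.9. The value given is the gap to the nearest library divided by the whole range, and 0.71 is the limit for 5 libraries.

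Of the selected genes, Cnpy1, a regulator of fibroblast growth factor signalling at the midbrain-hindbrain boundary, was at 2.07 CPM in mouse 2 against 0.64 to 0.98 CPM in the others (0.766). Rad51b, a DNA repair gene, was at 2.07 CPM in mouse 3 against 0.98 to 1.25 CPM (0.749). The noncoding Gm28209 was at 0.80 CPM in mouse 4 against 0.66 to 0.70 CPM (0.723), Gm43965 at 3.48 CPM in mouse 2 against 3.00 to 3.13 CPM (0.724) and Gm26669 at 1.35 CPM in mouse 5 against 1.16 to 1.21 CPM (0.734). For the noncoding genes the chi-square of counts per degree of freedom was 0.13, 0.31 and 0.11, so their outlying libraries lie within counting error, while for Cnpy1 and Rad51b it was 9.09 and 4.01.

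Of the list genes outside the rule, Shox2, a homeodomain factor of the diencephalon, was at 16.3 CPM in mouse 4 against 2.72 to 4.99 CPM (0.832). Csf2ra was at 20.02 CPM in mouse 2 against 13.4 to 13.8 CPM (0.940), Fn1, the matrix protein fibronectin, at 175 CPM in mouse 3 against 141 to 149 CPM (0.766), and Meis2, a homeodomain factor of the subpallium, at 578 CPM in mouse 4 against 642 to 660 CPM (0.780).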

How the results depend on the processing

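The number of genes that meet the rule depends on its limit. It was 102 at 3 reads, 3 at 0 reads, 17 at 1 read or less, 197 at 5 or less and 422 at 10 or less in each TdTomato+ library, with 17, 1, 1, 22 and 30 of them in the microglial list. At a TMM-scaled CPM no higher than 3 reads in the deepest TdTomato+ library it was 57, with 8 microglial genes, since 3 reads then exceed the limit in the 4 shallower libraries. Leaving out 1 mouse gave 105 to 128 genes, with 17 to 20 microglial genes.

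Of the microglial genes outside the rule 20 were lower; with a filter of more than 1 CPM in 5 libraries it was 12, of 24 that were then tested instead of 34. Without the replicate block 1846 genes were called in all instead of 1850, with 143 instead of 144 list genes outside the rule lower. Apart from the fall from 20 to 12, no count of calls given here moved by over 1.5 times. Of 64 values under an alternative, 58 kept within their margin and 6 moved, which are those above. Library size as the only scaling shifted the median log2 fold change of all genes to -0.18 and the share of lower among called genes from 75.3% to 80.7%; the median TdTomato- level of the selected genes was then 1.41 CPM instead of 1.33 CPM. The number of microglial genes with mice 3 and 4 lowest (46 of 51) was the same under all 3 scalings, and the 13 lower neighbours of noncoding genes were 13 under every alternative run. These last alternatives were added after the data were seen.

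Depth limits what can be said of single genes: 81 of the 102 were under 2 CPM in TdTomato- libraries, and ratios rest on 13 TdTomato+ reads or fewer. Promoter windows were found for 70.6% of the 102 genes and 73.9% of all genes, under the 80% set for such a comparison, so the comparison of promoter letters and its alternative without shared windows are not given.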
